A study of Mus musculus with 2 samples.

Results

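Expression of 7 secreted growth factor genes was described in single myeloid cells of the mouse ankle synovium: Vegfa, Igf1, Areg, Hbegf, Pdgfb, Tgfb1 and Gdf15. They were picked by symbol, not by a measured value, though with earlier results of these data known. All 7 were found once among the 32285 genes counted. The cells came from bone marrow chimeras in which CD45.2 B6 hosts carried CD45.1 B6 marrow and the ankle had been shielded, so that host and incoming cells bear different forms of CD45. In the first group, chimeras were taken at day 7 after 200 µL of clodronate liposomes, given retro-orbitally, which kill phagocytes that take them up. In the second group, steady state, chimeras had received no treatment. Both groups thus shared the chimerism and the shielding. Cells had been sorted as CD11b+ and CD45+ and as negative for CD177 and Ly6C, for CD64 and MHC class II, and for SiglecF and Ly6G. Each group is 1 library from an unstated number of animals, so no difference between the groups has a replicate check and no p is given.

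VEGF-A acts on endothelial receptors and drives vessel growth and leakiness, and PDGF-B, a close relative in structure, recruits pericytes and fibroblasts through PDGFRB. IGF-1 is a survival and anabolic factor that connective tissue and macrophages release locally. Amphiregulin (Areg) and HB-EGF (Hbegf) are EGF receptor ligands made as membrane proteins and shed by the protease ADAM17. TGF-beta 1 (Tgfb1) is stored in a latent complex and freed by integrins and other binders, whereas GDF15, a distant member of the same superfamily, is known as a stress-induced factor. In the synovium, macrophages line the joint cavity and lie in the tissue beneath it, beside fibroblasts, vessels and incoming monocytes.

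In the mm10 build (coordinates from RefSeq, GRCm38.p6), Vegfa (ENSMUSG00000023951) lies at chr17:46016993-46032377, Igf1 (ENSMUSG00000020053) at chr10:87858265-87937047, Areg (ENSMUSG00000029378) at chr5:91139599-91148432, Pdgfb (ENSMUSG00000000489) at chr15:79995865-80024614, Tgfb1 (ENSMUSG00000002603) at chr7:25687002-25705077 and Gdf15 (ENSMUSG00000038508) at chr8:70629393-70632470. RefSeq windows upstream of an annotated start were taken for 5 of the 7 genes. Those of Vegfa, Areg and Tgfb1 are shown because these genes stood for different patterns described below: a gene that was higher within monocytes at day 7, a gene concentrated in few cells, and a gene found in most cells. Each is the 250 bases before the start, 5′ to 3′ on the gene's own strand, and capitals mark matches on either strand to the GC box (GGGCGG), the cyclic AMP response element (TGACGTCA) and the TATA box (TATAAA).
Vegfa, chr17:46032378-46032627, minus strand: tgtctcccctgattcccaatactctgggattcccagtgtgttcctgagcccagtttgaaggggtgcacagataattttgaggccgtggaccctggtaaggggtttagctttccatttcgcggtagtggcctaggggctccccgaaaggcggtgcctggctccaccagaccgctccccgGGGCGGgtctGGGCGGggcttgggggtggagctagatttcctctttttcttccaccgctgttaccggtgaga
Areg, chr5:91139349-91139598, plus strand: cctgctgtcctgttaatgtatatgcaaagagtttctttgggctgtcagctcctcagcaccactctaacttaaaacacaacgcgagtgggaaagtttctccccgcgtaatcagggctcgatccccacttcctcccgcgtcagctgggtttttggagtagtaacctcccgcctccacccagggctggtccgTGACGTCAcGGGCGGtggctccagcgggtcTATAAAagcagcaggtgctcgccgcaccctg
Tgfb1, chr7:25686752-25687001, plus strand: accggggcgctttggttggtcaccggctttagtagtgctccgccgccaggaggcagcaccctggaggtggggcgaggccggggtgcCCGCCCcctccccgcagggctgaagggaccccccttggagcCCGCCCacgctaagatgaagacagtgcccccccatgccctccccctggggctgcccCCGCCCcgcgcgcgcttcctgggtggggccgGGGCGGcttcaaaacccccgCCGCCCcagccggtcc
The Tgfb1 window held 5 GC boxes, the Vegfa window 2 and the Areg window 1. Of the 3 genes, the Areg window alone held the cyclic AMP response element, 61 bases before the start, and the TATA box, 31 bases before it. Over all 32851 windows of the same length, 32.7% held a GC box, 1.55% the cyclic AMP response element and 12.4% the TATA box. G and C made up 59.2% of the Vegfa window, 57.2% of the Areg window and 75.2% of the Tgfb1 window, against a median of 52.4% over all windows. The hypoxia response element core (ACGTG, in 16.6% of all windows), the AP-1 site (TGANTCA, 6.75%) and the CHOP-ATF4 site (TGATGNAA, 3.45%) were also searched and had no match in the 3 windows shown. A match describes letters and does not show that a factor binds.

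After filtering, 1200 day 7 cells with 10824984 unique molecular identifiers (UMIs, counted RNA molecules) and 1630 steady-state cells with 17060676 UMIs remained, with medians of 8309 and 9558.5 per cell, and the libraries shared 0 cell barcodes. Cells were gated by summed marker UMIs. Macrophage-like cells made up 13% of day 7 cells (156 cells) and 52.0% of steady-state cells (847), class II cells 10.5% (126) and 21.0% (342), classical monocyte-like cells 50.4% (605) and 12.0% (196), Ly6C-low monocyte-like cells 8.33% (100) and 5.71% (93), granulocyte and progenitor-like cells 13.4% (161) and 0.491% (8), and fibroblast-like cells 1.25% (15) and 3.93% (64). Several classes go against the sort. Fibroblast-like cells had medians of 2 and 3 CD11b antibody counts, against 114 and 357.5 over all cells, and monocytes, class II and granulocyte cells were abundant despite the negative sort for their antigens. Which cells entered each library and how much RNA each cell held both shape a level summed over all cells, so values are given within classes as well. Levels are given as CPM, the gene's UMIs for every 1000000 UMIs of the class, with a 95% exact Poisson interval, which covers counting error alone.

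A gene was called higher or lower at day 7 when it reached 20 CPM in either library and differed at least 2-fold. Over all cells 5 of the 7 genes reached the minimum: 1 was called higher, where 6.51% of all 6439 genes tested were, and 2 were called lower, where 10.6% were. In macrophage-like cells 1 of 5 was called higher (1.21% of all genes) and 1 lower (0.991%). In class II cells 2 of 6 were called higher (4.1%) and 1 lower (3.98%). In classical monocyte-like cells 1 of 2 was called higher (2.46%) and 0 lower (1.42%), and in Ly6C-low monocyte-like cells 2 of 4 were called higher (7.39%) and 0 lower (5.93%). In fibroblast-like cells, with 15 cells at day 7, 0 of 4 were called higher (19.7%) and 1 lower (11.2%). Among subsets, lining-type macrophages had 1 of 5 called higher (3.97%) and 1 lower (2.09%), Aqp1 Fxyd2 macrophages 1 of 4 higher (5.74%) and 1 lower (3.61%), and the Lyve1 Cd163 macrophage subset 1 of 4 higher (6.76%) and 0 lower (7.18%). Mgl2 class II cells had 1 of 6 called higher (14.5%) and 0 lower (9.53%), and Mgl2-low class II cells 1 of 4 higher (3.13%) and 1 lower (2.93%). Shares of such small numbers of genes say little against the background. Over all cells and in the 4 leukocyte classes other than granulocytes, the median log2 ratio of all genes tested lay between -0.04 and 0.13.

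**Figure D1:**
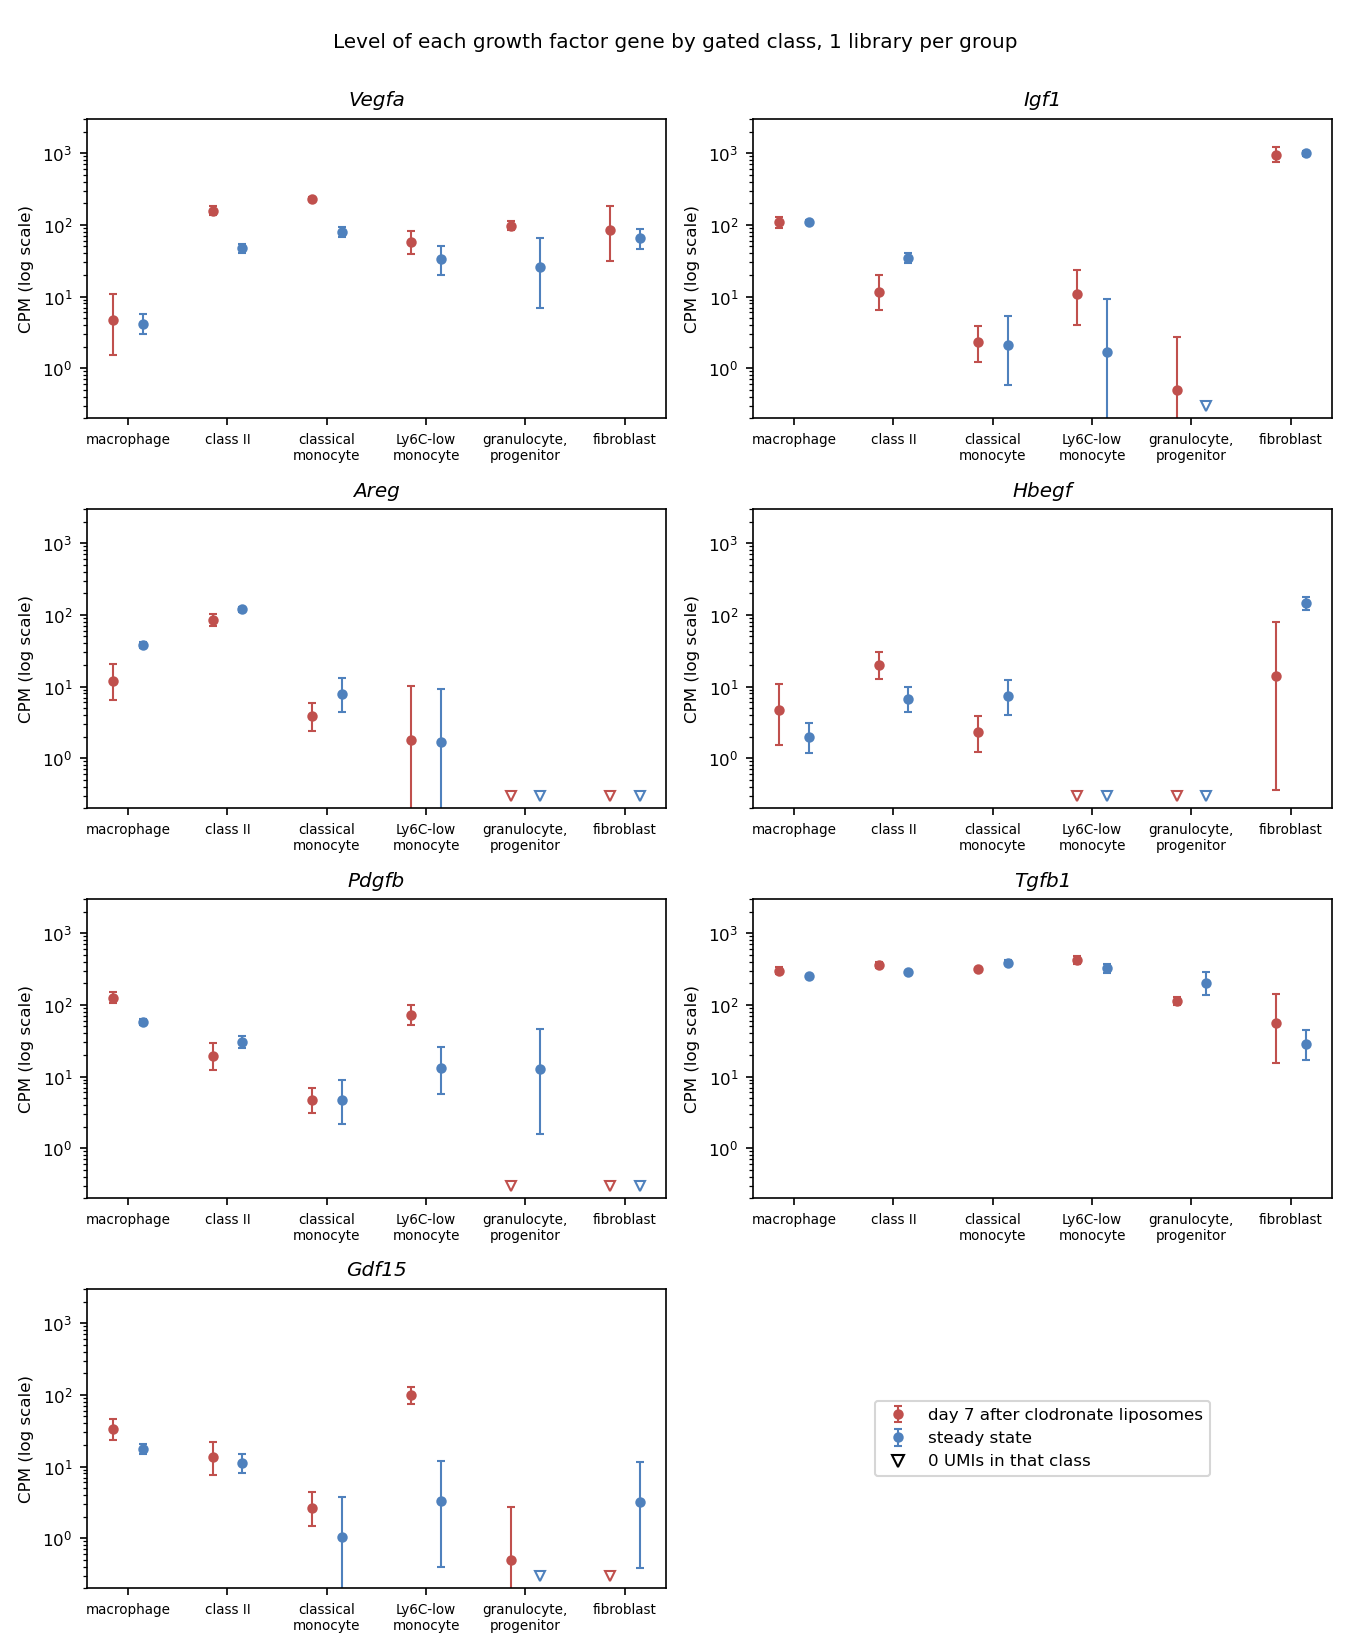
CPM of each growth factor gene (log scale) in 6 gated classes, day 7 in red at the left of each pair and steady state in blue at the right, with 95% exact Poisson intervals over the UMIs of 1 library each; open triangles mark 0 UMIs. Vegfa was lowest in macrophage-like cells and Igf1 highest in fibroblast-like cells in both libraries, while Tgfb1 lay between 28.5 and 425 CPM in all 6 classes.

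Vegfa was carried mainly by classical monocyte-like and class II cells, was near 0 in macrophage-like cells, and was more abundant at day 7 within both of these classes. Classical monocyte-like cells held 74.5% of Vegfa UMIs at day 7 and 33.6% at steady state, class II cells 10.8% and 41.4%, and granulocyte and progenitor-like cells 11.4% and 0.895%. Classical monocyte-like cells had 229 CPM at day 7 (interval 216.5 to 242) and 79.0 CPM at steady state (66.9 to 92.8), a log2 ratio of 1.53 (1.29 to 1.79). Class II cells had 158 CPM at day 7 and 47.5 CPM at steady state, a log2 ratio of 1.73 (1.43 to 2.03). In both classes the intervals of the libraries lay apart, and both were called higher. Ly6C-low monocyte-like cells had 58.2 and 33.2 CPM, a log2 ratio of 0.81 whose interval (-0.04 to 1.69) takes in no change. Macrophage-like cells held 5 UMIs in 156 cells at day 7 (4.66 CPM) and 38 UMIs in 847 cells at steady state (4.20 CPM), and the Lyve1 Cd163 macrophage subset held 1 and 0. The steady-state UMIs were uneven, since 3 of the 14 macrophage-like cells with a Vegfa UMI held at least 50% of the 38.

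The order of Vegfa levels by class was classical monocyte-like, class II, granulocyte and progenitor-like, fibroblast-like, Ly6C-low monocyte-like and macrophage-like at day 7. From the granulocyte to the fibroblast-like and from the fibroblast-like to the Ly6C-low class each interval overlapped the next. At steady state the order was classical monocyte-like, fibroblast-like, class II, Ly6C-low monocyte-like, granulocyte and progenitor-like and macrophage-like. Among the first 5 each interval overlapped the next, while classical monocyte-like and class II cells lay apart from each other and macrophages lay below all. At least 1 Vegfa UMI was found in 50.4% of day 7 and 31.6% of steady-state classical monocyte-like cells (median depths 8941 and 8838.5), against 2.56% and 1.65% of macrophage-like cells (6664.5 and 10055). With every cell thinned to 3000 UMIs, the shares among classical monocyte-like cells were 36.2% and 13.3%. Within class II cells, the call was carried by the Mgl2-low cells, at 176 CPM at day 7 and 66.1 CPM at steady state (log2 ratio 1.41), while the Mgl2 class II cells had 43.1 and 25 CPM from 7 and 44 UMIs, and without the highest cell in each library their log2 ratio was -1.53.

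Other cell signatures moved with the Vegfa values. In class II cells the classical monocyte marker list (7 of 7 genes detected in both) summed to 3990 CPM at day 7 and 1948 CPM at steady state, and the class II list to 12026 and 27546 CPM. In classical monocyte-like cells the granulocyte and progenitor list summed to 761 CPM (11 of 11 genes) and 165 CPM (7 of 11), and 6 early-response genes that rise during tissue digestion summed to 2418 and 4692 CPM. The part of these differences in the Vegfa result was not tested. The granulocyte and progenitor-like cells themselves had 97.2 CPM of Vegfa at day 7 and 25.8 CPM from 4 UMIs at steady state.

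Pdgfb was the macrophage counterpart, and its level over all cells ran against its level within its source. Macrophage-like cells had 127 CPM at day 7 (106 to 150) and 57.9 CPM at steady state (53.1 to 63.1), a log2 ratio of 1.13 (0.85 to 1.40) and a call. They held 58.4% of all Pdgfb UMIs at day 7 and 74.0% at steady state. The Aqp1 Fxyd2 subset, named for a water channel and a sodium pump regulator, had 185 CPM at day 7 and 52.5 CPM at steady state (log2 ratio 1.81, 1.36 to 2.26). Lining-type macrophages, which express Vsig4 and Sparc, had 98.6 and 67.5 CPM, a log2 ratio of 0.55 (0.06 to 0.998) that was not called. At steady state the intervals of the lining-type (60.4 to 75.3) and Aqp1 Fxyd2 cells (43.3 to 63.1) overlapped, and at day 7 that of the Aqp1 Fxyd2 cells (144 to 233) lay above that of the lining-type cells (71.9 to 132). Without the highest cell of each subset at day 7, which held 19 and 8 UMIs, these intervals were 104 to 184 and 58.2 to 114 and overlapped.

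The call in macrophages was close to its threshold: without the cell with the most Pdgfb UMIs in each library (19 of 136 UMIs at day 7) the log2 ratio was 0.95, and with cells thinned to 3000 UMIs it was 0.79, both short of the call. Host-class macrophages, those with the CD45.2 antibody, had 143 CPM at day 7 (93 cells) and 60.6 CPM at steady state (705 cells). Donor-class macrophages had 102 CPM from 8 UMIs in 15 cells at day 7 and 35.0 CPM from 27 UMIs in 79 cells at steady state. Both origins were higher at day 7, with overlapping intervals in the small donor class (44.0 to 201 and 23.08 to 51.0). Median CD45.2 counts in macrophages were 22 and 41, so origin was read at a lower antibody depth at day 7. In macrophage-like cells the macrophage list summed to 14506 CPM at day 7 and 20888 CPM at steady state (11 of 11 genes in both), the class II list to 292 and 519 CPM (6 and 7 of 7), the granulocyte and progenitor list to 170 and 19.7 CPM (10 and 8 of 11) and interferon genes to 10.2 and 57.0 CPM (4 and 5 of 5), and their part in the Pdgfb values was not tested.

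Ly6C-low monocyte-like cells, which patrol vessel walls, came second for Pdgfb at day 7, with 40 UMIs in 24 of 100 cells (72.7 CPM) against 8 UMIs in 7 of 93 cells at steady state (13.3 CPM), a log2 ratio of 2.45 (1.34 to 3.76). The highest day 7 cell held 4 of these UMIs, and without the highest cell in each library the log2 ratio was 2.67. In class II cells Pdgfb was at 19.3 CPM at day 7 and 30.3 CPM at steady state, and in their Mgl2-low cells it was called lower, at 13.6 and 28.1 CPM (log2 ratio -1.05, -2.00 to -0.19; 2.93% of all genes were called lower there). That call was at its threshold and ended with median-of-ratios scaling (-0.93), TMM scaling (-0.95), Leiden classes (-0.99), equal weight per cell (-0.88) and raised gates (-0.59). Classical monocyte-like cells had 4.76 and 4.74 CPM and a Pdgfb UMI in 3.47% and 4.08% of cells. Fibroblast-like cells held 0 UMIs in both libraries, where 3 UMIs would be 42.2 and 4.75 CPM.

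Igf1 came from fibroblast-like cells and macrophages, and neither class differed detectably between the libraries. Fibroblast-like cells had 956 CPM at day 7 (68 UMIs, 742 to 1212) and 1001 CPM at steady state (633 UMIs), a log2 ratio of -0.07 (-0.45 to 0.30). Macrophage-like cells had 109 CPM at day 7 and 110 CPM at steady state, a log2 ratio of -0.01 (-0.30 to 0.27). The level over all cells was 20.3 CPM at day 7 and 106 CPM at steady state, a log2 ratio of -2.38 that was called lower. Among macrophages the Cd209 subset stood highest, with 863 CPM in 3 cells at day 7, where 13 of 15 UMIs came from 1 cell, and 599 CPM (499 to 714) in 30 cells at steady state. Without the highest cell in each library these were 239 CPM from 2 UMIs and 567 CPM. At steady state 27 of these 30 cells had an Igf1 UMI, against 215 of 429 lining-type cells, at a lower median depth of 4814 against 10493 UMIs.

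In class II cells Igf1 was called lower, with 14 UMIs (11.8 CPM) at day 7 and 135 UMIs (34.7 CPM) at steady state, a log2 ratio of -1.56 (-2.47 to -0.76). The macrophage marker list in the same cells summed to 639 CPM at day 7 and 1818 CPM at steady state, with 11 of 11 genes detected in both, and its part in the result was not tested. At steady state the 22 host-class cells within the class II gate had 100.6 CPM of Igf1, and the 308 donor-class cells had 22.9 CPM. Classical monocyte-like cells had 2.29 and 2.11 CPM and an Igf1 UMI in 1.49% and 2.04% of cells. Whether these UMIs are background was not tested.

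**Figure D2:**
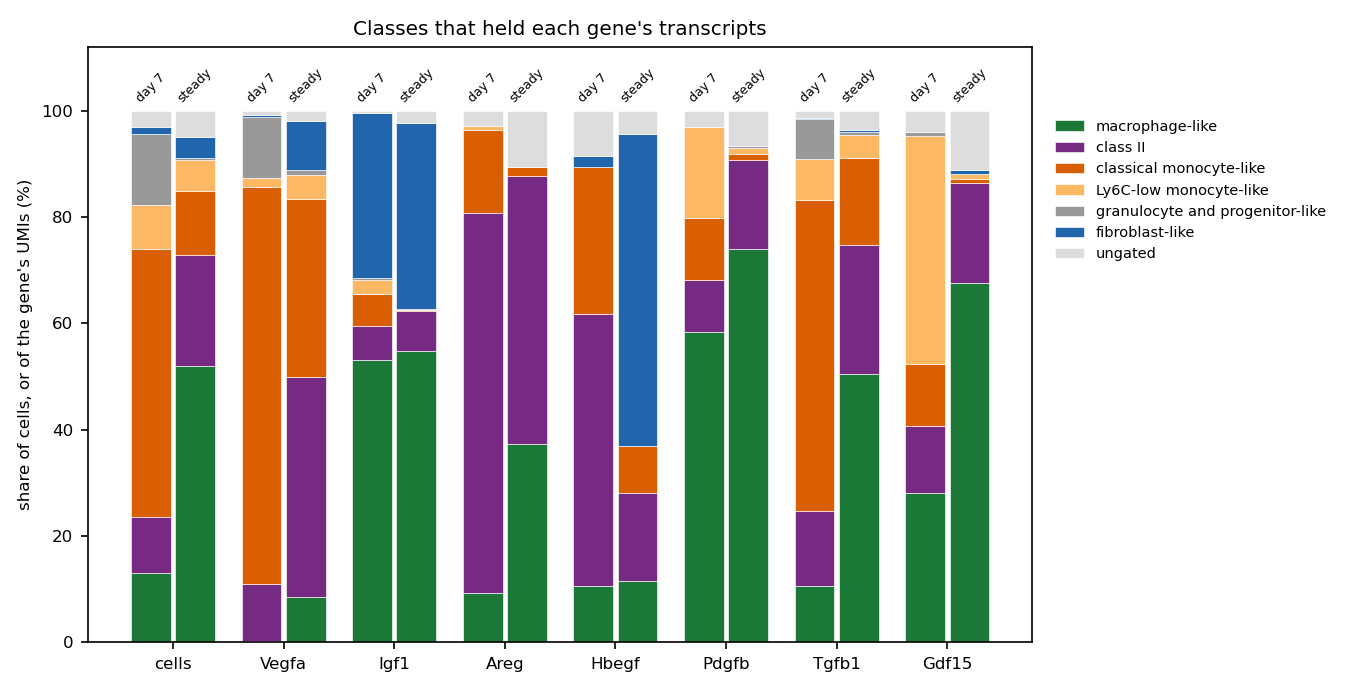
Stacked bars give the share (%) of cells, and of each gene's UMIs, in every gated class, with day 7 at the left of each pair and steady state at the right. Classical monocyte-like cells held 74.5% of Vegfa UMIs at day 7 and 33.6% at steady state, and macrophage-like cells held most Pdgfb UMIs in both libraries.

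Areg transcripts sat in few cells, and class II cells held 71.6% of them at day 7 and 50.3% at steady state. At day 7, 141 Areg UMIs were found in 26 of 1200 cells, and at steady state 920 UMIs in 98 of 1630 cells. The 2 cells with the most held at least 50% of all Areg UMIs at day 7, and 8 cells did so at steady state. By class, class II cells had 84.8 CPM at day 7 (7 of 126 cells with a UMI) and 119 CPM at steady state (36 of 342 cells), and macrophage-like cells 12.1 and 38.0 CPM. Classical monocyte-like cells held 22 UMIs in 12 cells at day 7 (3.88 CPM) and 15 UMIs in 9 cells at steady state (7.90 CPM). Ungated cells held 4 UMIs at day 7 (17.6 CPM) and 97 UMIs at steady state (117 CPM). The log2 ratio in class II cells was -0.49, and it was -1.23 without the highest cell in each library. The macrophage value was called lower, with a log2 ratio of -1.65 (-2.58 to -0.86), from 13 UMIs in 5 cells at day 7 and 344 UMIs in 42 cells at steady state. Of the macrophages, the Aqp1 Fxyd2 subset had the most, with 31.7 CPM at day 7 and 90.8 CPM at steady state. Lining-type macrophages held 1 UMI at day 7 and 104 UMIs (21.6 CPM) at steady state, 56 of them in 1 cell, and the log2 ratio of -3.30 was -0.58, an upper bound, without the highest cell in each library. Fibroblast-like cells and granulocyte and progenitor-like cells held 0 Areg UMIs in both libraries.

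The Mgl2 class II cells, marked by the lectins Mgl2 and Cd209a, had the highest Areg level, 376 CPM at day 7 and 233 CPM at steady state, but the 61 UMIs of day 7 came from 1 of 13 cells. That cell had 41415 UMIs in all, against a median of 11022 in its subset, and was not called a doublet. Without the highest cell in each library this subset had 0 Areg UMIs at day 7 and 262 at steady state. At steady state 24 of 128 Mgl2 class II cells had an Areg UMI, and the highest cell held 148 of their 410. Over all cells Areg was called lower, at 13 CPM at day 7 and 53.9 CPM at steady state (log2 ratio -2.05), and without the highest cell in each library the log2 ratio was -2.61.

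Cells with at least 10 Areg UMIs numbered 3 at day 7, all class II, and 20 at steady state, of which 10 were class II, 8 macrophage-like and 2 ungated. In those 20 cells Ereg, the neighbouring EGF receptor ligand epiregulin, was at 153 CPM, against 0.65 CPM in the 1181 class II, macrophage-like and ungated cells with 0 Areg UMIs. The chemokine genes Cxcl2 and Cxcl3 were at 5353 and 517 CPM in the 20 cells and at 1243 and 4.37 CPM in the cells without Areg, and the cytokine genes Il1a and Il1b at 153 and 1078 CPM in the 20 cells against 7.13 and 252 CPM. These genes were chosen with earlier results known and the 20 cells were picked on Areg itself, so the values are a description. Cxcl2 was present in 90.0% of these 20 cells and in 43.7% of the cells without Areg, and Il1b in 60% and 20.3%. The other genes were found in a minority of the 20 cells: Ereg in 25%, Il1a in 30% and Cxcl3 in 20%. In the cells without Areg these shares were 0.42%, 3.22% and 1.52%. The median depths were 18358 UMIs in the 20 cells and 9782 UMIs in the cells without Areg, and a deeper cell is more likely to show a UMI of any gene.

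Hbegf was rare in myeloid cells and its steady-state level was set by a few fibroblasts. Fibroblast-like cells held 1 UMI at day 7 (14.1 CPM, 0.356 to 78.3) and 92 UMIs at steady state (146 CPM), of which 54 were in 1 cell and 24 in another. The log2 ratio of -3.37 (-8.69 to -0.86) was called lower, where 11.2% of all genes were, and rests on 15 day 7 cells. Without the highest cell in each library 0 UMIs stood against 38, and the ratio was at most -0.51 when 3 counts stand for the 0. Class II cells had 24 UMIs (20.1 CPM) at day 7 and 26 UMIs (6.67 CPM) at steady state, a log2 ratio of 1.59 that was called higher. Of the 24 UMIs 16 came from the same deep Mgl2 class II cell that held 61 Areg UMIs. Without the highest cell in each library the log2 ratio was 0.23, and with equal weight for each cell it was 0.55, so the call ended. Ly6C-low monocyte-like cells held 0 Hbegf UMIs in 100 and 93 cells, where 3 UMIs would be 5.45 and 4.98 CPM.

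Tgfb1 was the broadly expressed member. Over all cells it had 283 CPM at day 7 and 266 CPM at steady state, a log2 ratio of 0.09 (0.02 to 0.16), and a UMI was found in 75.3% and 78.4% of cells. Ly6C-low monocyte-like cells had 425 and 322 CPM, class II cells 363 and 283 CPM, classical monocyte-like cells 316 and 389 CPM, and macrophage-like cells 301 and 253 CPM. None of these classes was called. At day 7 the interval of each of these classes overlapped the next in the order, and at steady state all did so except class II and macrophage-like cells. Granulocyte and progenitor-like cells had 114 and 200 CPM, and fibroblast-like cells had the lowest level, with 4 UMIs (56.2 CPM) and 18 UMIs (28.5 CPM). Fibroblasts instead held Tgfb2, a related isoform, at 239 and 158 CPM.

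Gdf15 was at about the same level over all cells, 11.8 CPM at day 7 and 13.7 CPM at steady state, while its cells differed. At day 7 Ly6C-low monocyte-like cells held 55 UMIs (99.95 CPM) in 11 of 100 cells, against 2 UMIs (3.32 CPM) in 1 of 93 cells at steady state. The log2 ratio was 4.91, with an interval of 2.99 to 7.99. A single cell held 32 of the 55 UMIs. Without the highest cell in each library 23 UMIs stood against 0, which puts the ratio at no less than 3.08 on the log2 scale when 3 counts stand for the 0. Ly6C-low cells thus carried 43.0% of Gdf15 UMIs at day 7 and 0.855% at steady state.

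Macrophage-like cells held 36 Gdf15 UMIs (33.5 CPM) at day 7 and 158 UMIs (17.5 CPM) at steady state, a log2 ratio of 0.94 that was not called, and that passed 2-fold at 1.06 with median-of-ratios and 1.04 with TMM scaling. At day 7, 23 of the 36 UMIs lay in 4 cells of under 3000 UMIs, and with cells of at least 3000 UMIs the log2 ratio was -0.41 at full depth and -0.82 thinned to 3000. Lining-type macrophages had 48.2 CPM from 22 UMIs at day 7 and 16.6 CPM from 80 UMIs at steady state and were called higher (log2 ratio 1.54, 0.78 to 2.23; 3.97% of all genes were). That call rested on 3 day 7 cells of under 3000 UMIs, which held 17 of the 22 UMIs. Without cells of under 3000 UMIs, which are 10 of 61 day 7 and 28 of 429 steady-state lining-type cells, the log2 ratio changed its sign, to -0.56 at full depth and to -1.55, from 1 UMI at day 7, with the remaining cells thinned to 3000 UMIs. With Leiden clusters in place of gates it was 0.08. Classical monocyte-like cells had a Gdf15 UMI in 0.661% and 0.510% of cells, and Ly6C-low cells in 11% and 1.08%.

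The Ly6C-low class at day 7 also differed in a set of stress genes. Of 16 genes of the integrated stress response and of the oxidant-sensing factor NRF2, 11 were tested there. Of these, 6 were called higher (7.39% of all genes were) and 2 lower (5.93%), with a median log2 ratio of 1.003 against 0.06 over all genes tested. Hmox1, the haem-degrading oxygenase, had 691 CPM at day 7 and 49.8 CPM at steady state (log2 ratio 3.79), Gclm, a subunit of the glutathione-making ligase, 114 and 9.95 CPM (3.52), and Slc7a11, the cystine transporter, 174 and 36.5 CPM (2.26). Txnrd1, Srxn1 and Nfe2l2 were the other genes called higher. Atf3 and Ddit4 were called lower, Atf3 at 293 and 653 CPM and Ddit4 at 9.09 and 28.2 CPM. In macrophage-like cells 0 of 8 tested genes of this list were called in either direction. Only 1.21% of all genes were called higher there and 0.991% lower, so 0 calls say little about the list. Other markers in the Ly6C-low class also moved: the granulocyte and progenitor list summed to 222 and 41.5 CPM, mast cell and basophil genes to 50.9 CPM (5 of 6 detected) and 0 CPM (0 of 6), T, B and NK cell genes to 36.3 and 3.32 CPM, macrophage genes to 131 and 272 CPM, and Aqp1 Fxyd2 macrophage genes to 7.27 and 202 CPM (3 of 3 in both). The early-response genes of digestion summed to 1756 and 3065 CPM there, and mitochondrial transcripts made up 2.82% and 1.81% of UMIs. The part of these differences in the Gdf15, Pdgfb and stress gene values was not tested.

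**Figure D3:**
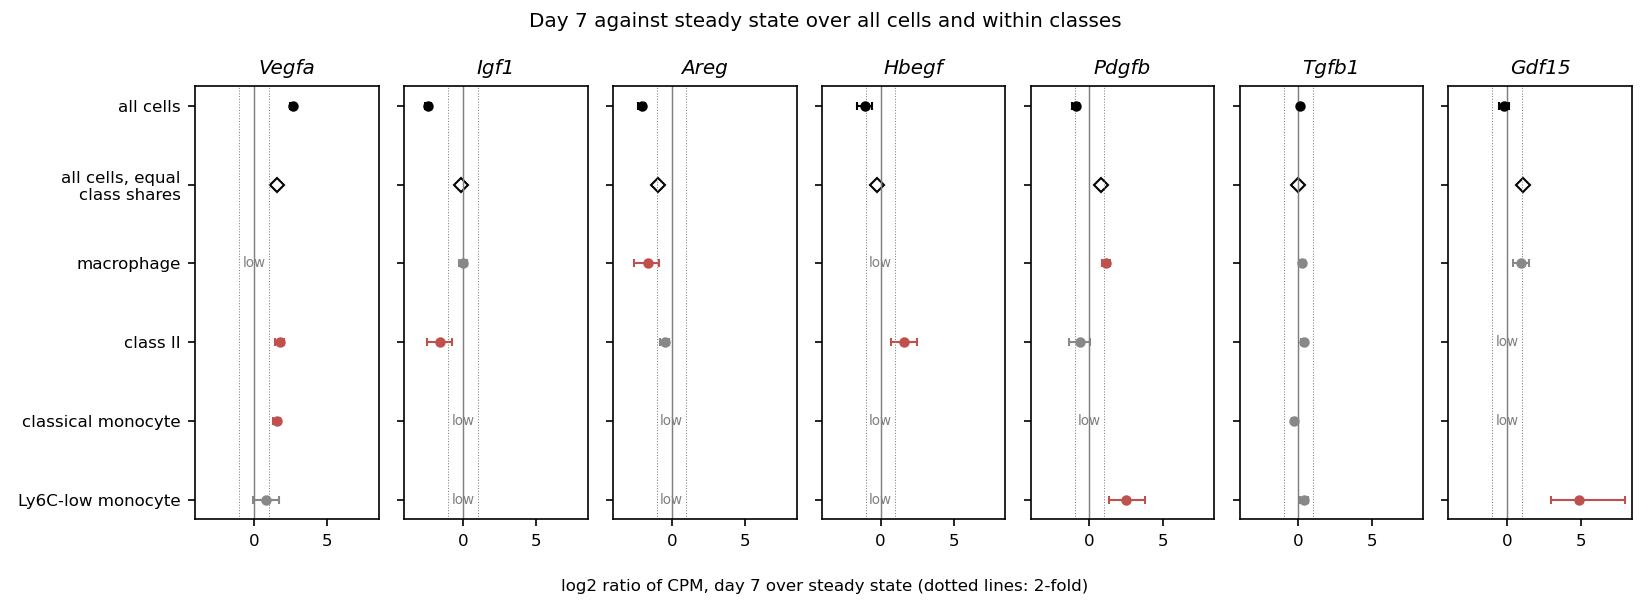
Log2 ratio of CPM, day 7 over steady state, for each gene over all cells (black), over all cells with the class shares of the libraries made equal (open diamond) and within 4 classes, with 95% conditional exact Poisson intervals; red marks a call, grey no call, and "low" a class under 20 CPM in both libraries or without a ratio. Pdgfb lay at -0.95 over all cells and at 0.77 with equal class shares, and Igf1 at -2.38 and -0.15.

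Setting the within-class values beside those of all cells separated shares of cells from levels within them. When both libraries were given the same class shares (the mean of their UMI shares), the log2 ratio of Vegfa was 1.54, against 2.62 over all cells as found. Igf1 was then at -0.15 against -2.38 as found, Areg at -0.95 against -2.05, and Hbegf at -0.21 against -1.08. Pdgfb changed its sign, to 0.77 against -0.95, and Gdf15 was at 1.05 against -0.21. This Gdf15 value takes over the day 7 class levels with their limits. In them 1 Ly6C-low cell held 32 of 55 UMIs, and 4 macrophage-like cells of under 3000 UMIs held 23 of 36. Tgfb1 was at 0.01 against 0.09. Vegfa alone of the 7 was above 2-fold with and without this adjustment.

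The spread over cells divided the 7 genes. For Tgfb1, 225 cells at day 7 and 311 cells at steady state held 50% of the UMIs, against 312 and 454 cells for 50% of all UMIs. For Vegfa 87 and 40 cells held 50%, for Pdgfb 31 and 115, for Igf1 12 and 64, for Gdf15 5 and 17, for Hbegf 2 and 3, and for Areg 2 and 8. The fewer UMIs a gene has, the fewer cells can hold 50% of them: Hbegf had 47 and 157 UMIs, Tgfb1 3060 and 4531. The top 1% of cells held 90.1% of Areg UMIs at day 7 and 71.1% at steady state, but 5.33% and 5.41% of Tgfb1 UMIs. With cells thinned to 3000 UMIs, which kept 977 and 1433 cells, the variance over the mean was 4.397 and 7.10 for Areg, 3.56 and 2.37 for Gdf15, 3.82 and 4.62 for Igf1, 2.57 and 1.82 for Vegfa, 1.49 and 2.63 for Hbegf, 1.47 and 1.28 for Pdgfb, and 1.35 in both libraries for Tgfb1. A value of 1 is that of random sampling from equal cells, so Areg stood farthest from it at equal depth. Closest to it were Tgfb1 at day 7 and Pdgfb at steady state. For the same unevenness this value is larger in a gene of higher level. The values therefore do not rank the 7 genes by unevenness alone, and a low value in a rare gene such as Hbegf does not mean an even spread. Within day 7 classical monocyte-like cells alone, the thinned Vegfa counts had 2.45, so the unevenness of Vegfa was also present inside its main class.

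**Figure D4:**
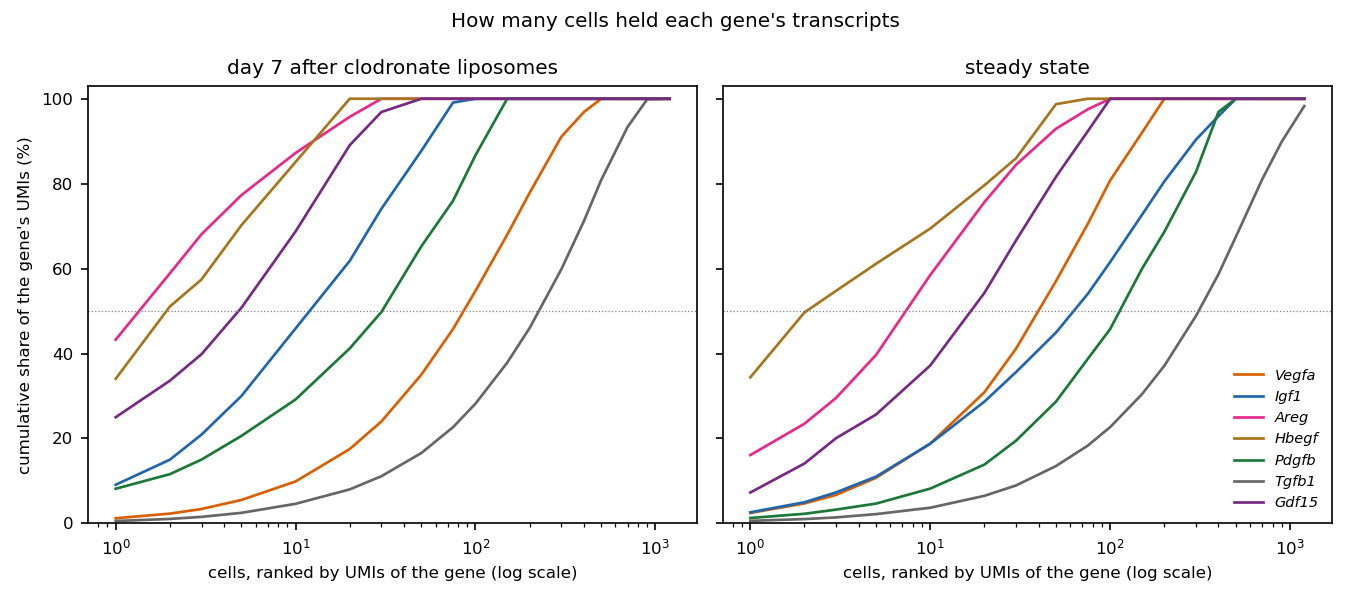
Cumulative share (%) of each gene's UMIs over cells ranked by their UMIs of that gene (log scale), day 7 in the left panel and steady state in the right; the dotted line marks 50%. Areg and Hbegf reach 50% within 2 cells at day 7, and Tgfb1 needs 225.

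Genes of the same pathways were read from lists. Of 22 related ligands, 5 were tested over all cells, with 2 called higher (6.51% of all genes were) and 3 lower (10.6%). Osm, encoding the cytokine oncostatin M, was at 257 CPM at day 7 and 58.6 CPM at steady state, and Nrg1, the ligand neuregulin 1, at 24.3 and 3.63 CPM, while Pdgfa, Pdgfc and Bmp2 were called lower. Within classical monocyte-like cells Nrg1 was called higher, at 41.1 and 15.3 CPM (log2 ratio 1.43). Within macrophage-like cells 1 of 5 tested ligands was called, Vegfb, called lower at 12.1 and 24.8 CPM (0.991% of all genes were). Classical monocyte-like cells held 2367 of the 2781 Osm UMIs of day 7, and there Osm was at 417 and 305 CPM (log2 ratio 0.45) and not called. In class II and macrophage-like cells its log2 ratios of 0.92 and 0.98 were not called, and both passed 2-fold with median-of-ratios and TMM scaling. In Ly6C-low cells Osm was called higher, at 102 and 49.8 CPM. In the same cells Csf1, the growth factor of macrophages, had 22 UMIs (39.98 CPM) at day 7 and 1 UMI (1.66 CPM) at steady state, a log2 ratio of 4.59 with an interval of 1.96 to 9.96, in 3% and 1.08% of cells.

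Receptors for these factors were placed in partly different cells. Fibroblast-like cells had Pdgfra at 450 and 563 CPM, and Pdgfrb, the receptor for PDGF-B, at 98.4 and 79.1 CPM. Egfr, the receptor for Areg and Hbegf, was at 98.4 and 168 CPM in fibroblast-like cells (7 and 106 UMIs) and at 20.5 and 15.03 CPM in the more numerous macrophage-like cells (22 and 136 UMIs). Nrp1, a co-receptor of VEGF-A, was found in macrophage-like cells at 131 and 152 CPM, and Flt1, a VEGF-A receptor, in class II cells at 51.2 and 73.2 CPM. Tgfbr2, a TGF-beta receptor, was at 365 and 239 CPM in fibroblast-like cells, at 273 and 227 CPM in macrophage-like cells and at 29.4 and 38.5 CPM in classical monocyte-like cells. Within macrophage-like cells 0 of 9 tested receptors were called (1.21% of all genes were called higher and 0.991% lower), and within class II cells 0 of 10 (4.1% and 3.98%). In classical monocyte-like cells Flt1 alone of 7 was called lower, at 10.8 and 21.6 CPM (1.42% of all genes were). In Ly6C-low cells 1 of 7 was called higher (7.39% of all genes were), Igf2r, at 34.5 and 6.63 CPM. There 2 were called lower (5.93%), Flt1 at 14.5 and 38.1 CPM and Tgfbr3 at 23.6 and 53.1 CPM. Over all cells 1 of 10 was called higher (6.51% of all genes were), Igf1r, and 5 lower (10.6%), Flt1, Nrp2, Pdgfra, Tgfbr2 and Eng. The calls of Flt1 in classical monocyte-like cells and of Vegfb in macrophage-like cells ended with both median-of-ratios and TMM scaling (-0.89 and -0.91 for Flt1, -0.92 and -0.93 for Vegfb on the log2 scale).

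Among 24 genes for processing, storage and binding, Thbs1, whose product thrombospondin 1 binds and can activate latent TGF-beta, was the gene called in most classes. It had 2279 CPM at day 7 and 1095 CPM at steady state in classical monocyte-like cells, 1137 and 208 CPM in class II cells, and 82.0 and 10.7 CPM in macrophage-like cells, and was called higher in each of these classes. Adam17, the sheddase of the EGF family, was called higher in class II cells at 106 and 43.6 CPM and in Ly6C-low cells at 171 and 56.4 CPM, and its partner Rhbdf2 in the same classes, at 42.8 and 15.1 CPM and at 34.5 and 16.6 CPM. The Rhbdf2 call in Ly6C-low cells came from 19 and 10 UMIs. Its log2 ratio of 1.06 had an interval (-0.12 to 2.33) that takes in no change. Of 12 hypoxia genes 0 of 7 tested in classical monocyte-like cells were called, where 2.46% of all genes were called higher and 1.42% lower. The median log2 ratio of the 7 was 0.17, against 0.13 over all genes tested. In class II cells 3 of 8 hypoxia genes were called lower (3.98% of all genes were), namely Bnip3, Ldha and Ankrd37. The call of Ldha ended with both scalings (-0.96 and -0.98). Of the TGF-beta target genes, 6 were tested in Ly6C-low cells and 2, Tgfbi and Tgif1, were called higher (7.39% of all genes were). Tgfbi was at 622 CPM at day 7 and 279 CPM at steady state there.

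Genes with the most similar pattern were sought over 15 class-by-library profiles of at least 30 cells, by Pearson's r of log2(CPM + 10) among 5467 genes, as a description with no p, since profiles share libraries. The gene closest to Vegfa was Thbs1 (r = 0.95), followed by Siva1 (0.95) and Sec61b (0.91). Closest to Igf1 were Plscr4 (0.97) and Ryk (0.95), to Areg Kcnn4 (0.89) and Ldha (0.87), and to Hbegf C1ra (0.96) and Timp1 (0.96). Closest to Pdgfb was Gnb1 (0.94), to Tgfb1 Otulinl (0.96) and Laptm5 (0.96), and to Gdf15 Mllt6 (0.84). Among the 7 genes themselves the highest r was that of Pdgfb and Gdf15 (0.67) and the lowest that of Hbegf and Tgfb1 (-0.76). The likeness of Hbegf to C1ra and Timp1 rested on the single fibroblast-like profile with enough cells, that of steady state. In that profile Hbegf was at 146 CPM, Igf1 at 1001 CPM and Tgfb1 at 28.5 CPM. How far the r of Hbegf and Tgfb1 and the likenesses of Igf1 also rested on it was not tested.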

How the data were processed

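CITE-seq libraries (10x 3′ v3.1) of sorted ankle synovium cells were analysed, 1 for day 7 and 1 for steady state. The authors deposited raw UMI counts of genes and antibodies. The submitters' processing notes name Cell Ranger 6.1.2, the mm10 build and Seurat 4.4.0, the last without a role. The filter kept barcodes with 500 or more UMIs, 200 or more genes and a mitochondrial share of 10% or less: 1210 of 1277 barcodes at day 7 and 1637 of 1912 at steady state. Scrublet (scanpy 1.11.5) called 10 and 7 doublets, which were removed. The growth factor genes, marker lists and related lists were chosen with earlier results of these data known.

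Classes were gated in turn by marker UMIs per 10000: granulocyte and progenitor at least 100, fibroblast 50, macrophage 30 and no fewer than class II, class II 50, then, under 30 macrophage UMIs, Ly6C-low 10 and at least 0.5 of the classical sum, and classical 20. Macrophage subsets used Cd209 10, lining-type 20, interstitial (here the Lyve1 Cd163 subset) 40 and Aqp1 Fxyd2 30, and Mgl2 with Cd209a at least 3 marked Mgl2 class II cells. The thresholds were set after the marker sums had been seen, not the growth factor values. Each named class had its own markers among its 10 leading genes, which follows from gating on them and is no check of the names. The Lyve1 Cd163 subset also had Aqp1, Fxyd2 and Pf4 there, and leftover macrophages led by muscle genes were left unnamed. Origin came from a Gaussian mixture on CD45.2 over CD45.1 counts (posterior 0.95 or 0.05).

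UMIs were summed per class and library and scaled to CPM. With 1 library per group no test was run; Poisson, Clopper-Pearson and conditional ratio intervals (95%, scipy 1.17.1) cover counting error only. A count of 0 was set to 3 for bounds. The scripts were tested on simulated data. TMM factors came from edgeR 4.0.16. Named genes were the 7 and the members of 6 related lists past the call, with a few genes seen beside high Areg added after their values were known; Tgfb2 and the receptors were named for their levels.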

Additional observations from a re-analysis of the deposited data

Results flagged for a closer look

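Day 7 calls of opposite direction within different cells were found for Pdgfb and Hbegf, and the difference between the cells was not tested. Pdgfb was higher in macrophage-like cells (log2 ratio 1.13), the Lyve1 Cd163 macrophage subset (1.22), Aqp1 Fxyd2 macrophages (1.81) and Ly6C-low monocyte-like cells (2.45). The Lyve1 Cd163 value (interval 0.45 to 1.93) came from 21 UMIs in 28 cells at day 7 and 78 UMIs at steady state. Without the highest cell in each library, 15 and 73 UMIs remained there. Pdgfb was lower in Mgl2-low class II cells (-1.05), a call that ended with median-of-ratios (-0.93) and TMM scaling (-0.95). Hbegf was higher in class II cells (1.59) and in their Mgl2 subset (4.06, from 20 UMIs at day 7 and 13 at steady state, 16 of the 20 in 1 cell, and 2.39 without the highest cell in each library), and lower in fibroblast-like cells (-3.37).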

How the results depend on the processing

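Of 559 recomputed log2 ratios of 51 reported ones, 502 stayed within the main interval, 55 left it and 2 changed the sign of a called ratio, both for Gdf15 in lining-type macrophages: -1.55 with cells thinned to 3000 UMIs and -0.56 with the same cells at full depth. That last setting and the scalings of the single ratios were chosen after seeing the data. With equal class shares the all-cell ratios were 1.54 for Vegfa, -0.15 for Igf1, -0.95 for Areg, -0.21 for Hbegf, 0.77 for Pdgfb, 0.0094 for Tgfb1 and 1.05 for Gdf15. With equal weight per cell they were -1.85 for Igf1, -2.53 for Areg, -0.56 for Pdgfb, 0.17 for Tgfb1 and 0.16 for Gdf15, and Hbegf in class II cells was at 0.55. With thinned cells the all-cell ratios were 2.80 for Vegfa, -1.91 for Igf1 and 0.19 for Tgfb1, and within classes Vegfa was at 1.98 in classical monocyte-like cells and Pdgfb at 0.79 in macrophage-like cells. Without the cell with the most UMIs of the gene in each library, Areg was at -2.61 over all cells and Hbegf at 0.23 in class II cells. Stricter cell filters, kept doublets and scaling without ribosomal protein and mitochondrial genes moved none of the all-cell ratios out of the main interval. Leiden classes (87.8% of cells in the same class) and raised gates only relabel cells. They therefore leave every all-cell ratio as it was, and these unchanged values count among the 502. None of these settings, relabelling included, moved a ratio called in the 4 myeloid classes out of the main interval. The cause of these shifts was not tested beyond what each setting changes by construction.

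Over all cells 419 genes were called higher and 680 lower. With no CPM minimum these were 1530 and 3104, and at 50 CPM 223 and 373. Median-of-ratios scaling shifted every log2 ratio by 0.12 and TMM scaling by 0.10, and both left these counts within 1.5 times. Tgfb1 over all cells was then at 0.21 and 0.19, Pdgfb in Mgl2-low class II cells lost its call, and Gdf15 in macrophage-like cells and Tgfb1 in fibroblast-like cells (1.10 and 1.08) gained one. No paired analysis was possible because each group is 1 library and the shared replicate number only names it. At this depth a gene at 0 UMIs in the 15 day 7 fibroblast-like cells could still have been at 42.2 CPM, so small classes limit what can be seen.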

Other observations

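Host-class and donor-class macrophages differed in more than Pdgfb at steady state. Areg was at 93.4 CPM (73.1 to 118) in the 79 donor-class macrophages and at 32.8 CPM (28.9 to 37.1) in the 705 host-class ones, and Vegfa at 18.2 and 2.32 CPM. Igf1 went the other way, with 62.3 CPM in donor-class and 110 CPM in host-class macrophages. At day 7 host-class macrophages had 5.20 CPM of Areg from 4 UMIs in 93 cells, and donor-class macrophages 89.2 CPM from 7 UMIs in 15 cells. These values come from 1 library each and cover counting error only. Among steady-state macrophage-like cells of any origin, single cells held 68, 56 and 44 of the 344 Areg UMIs. For Vegfa, single cells held 11 and 7 of the 38 UMIs. How far such cells set the values by origin was not tested.

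Fibroblast-like cells, though few, held related ligands that were low in macrophage-like cells. Tgfb3 was at 42.2 CPM at day 7 and 47.5 CPM at steady state, Igf2 at 112.4 and 41.1 CPM, and Csf1 at 225 and 171 CPM. In the 15 day 7 cells 42.2 CPM is the level of 3 UMIs, so the day 7 values of Tgfb3 and Igf2 rest on few UMIs. Macrophage-like cells held 0 UMIs of Tgfb3 and Igf2 in either library and 5.59 and 2.65 CPM of Csf1.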
